A study of Mus musculus with 18 samples.

Results

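A group of 100 genes whose mean level was lowest on day 1 of RANKL, between a higher level before RANKL and a higher level on day 3, was followed in 18 libraries of mouse bone marrow-derived macrophages (BMDMs). The members were chosen by their measured values. Each library's counts were scaled to a common column sum (CPM) and averaged over the libraries of each label and day, and genes with a mean of at least 5 CPM on day 0 in both labels were kept. Each gene then had 4 log2 ratios, day 0 over day 1 and day 3 over day 1 in each of the 2 labels (WT and KO), with 1 CPM added to each mean, and its score was the smallest of the 4. The 100 genes with the highest scores are the members, out of 9950 genes scored and 34745 genes in the deposited table. A score above 0, meaning a mean below both other days in both labels, was found for 1149 of the 9950 genes scored (11.5%). That count depended on the scaling, at 625 of 10097 genes with trimmed-mean (TMM) library sizes and 738 of 10081 with DESeq2 size factors.

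The study took BMDMs from mice 4 to 8 weeks old, either Zmat1 knockout or wild-type littermates on a C57BL/6 background, grew them with M-CSF (macrophage colony-stimulating factor), and collected RNA before RANKL (day 0) and after 1 and 3 days of RANKL with M-CSF. The knockout was global, and all 6 groups carried M-CSF. There were 3 libraries in each of the 6 groups (WT or KO label; day 0, 1 or 3), with 13789775 to 17559958 counts each. The labels do not say whether each library came from its own mouse, so p-values measure the spread between these libraries, which may be technical.

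The libraries labelled KO did not have lower Zmat1 counts. Zmat1 ranged from 2.31 to 6.41 CPM in the 9 WT libraries and from 3.38 to 6.74 CPM in the 9 libraries labelled KO, and the log2 difference on day 3 was 0.63 ± 0.41 (SE, adjusted p = 0.62, edgeR). The table holds 1 count per gene, so reads from the deleted part of the gene could not be separated, and every KO value below belongs to a library labelled KO. The titles of 5 libraries are written with 2 hyphens (WT day 0 library 1, 1 of the WT day 1 libraries numbered 1, KO day 0 library 2, and KO day 1 libraries 1 and 2). All day 3 titles have a single hyphen. WT day 1 has a single-hyphen and a double-hyphen library numbered 1, and none numbered 3. The labels do not say whether those libraries share a sample. The 14 macrophage markers listed, none at 0, summed to between 34346 and 58381 CPM on day 0 and day 1, and to between 9252 and 21395 CPM on day 3. The 25 stromal or osteoblast markers, none at 0, summed to between 1609 and 17449 CPM on days 0 and 1 and to between 24228 and 55234 CPM on day 3. In such bulk RNA, fewer cells of a type and less RNA per cell cannot be told apart.

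RANKL is the cytokine that turns M-CSF-dependent macrophage precursors into osteoclasts, the multinucleated cells that resorb bone. It acts through its receptor RANK on NF-kB, AP-1 and NFATc1, and the precursors pass through an early signalling phase before genes of fusion, adhesion and acid secretion come on.

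**Figure D1:**
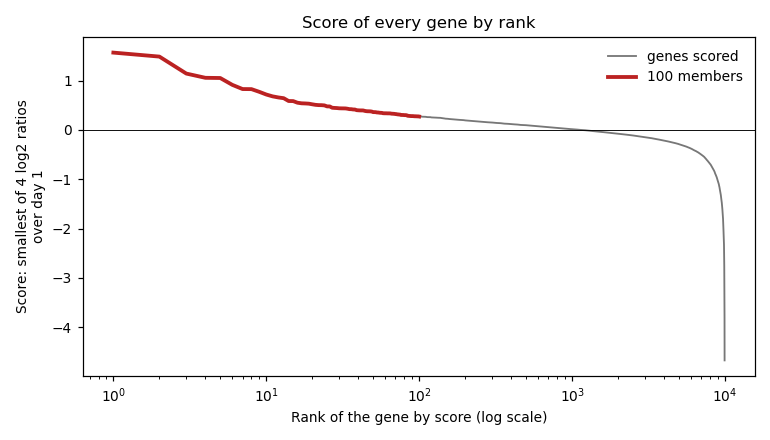
Score of each gene (the smallest of 4 log2 ratios over day 1, vertical axis) against its rank (log scale, horizontal axis), for the 9950 genes scored, with the 100 members in red. The members run from 1.57 down to 0.27 with no step at the threshold, and the line passes 0 at rank 1149.

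Most dips were small. The scores of the members ran from 1.57 to 0.27 with a median of 0.36, while the median over all genes scored was -0.29. Only 23 members, and no other gene, scored above 0.5, and 5 members scored above 1, which is a mean at least 2-fold below both other days in both labels. Those 5 were C1qtnf1, Plekhg5, Nr4a1, Plac8 and Hp. The median log2 ratio of the members was 0.56 for day 0 over day 1 and 0.69 for day 3 over day 1 in WT, and 0.50 and 0.66 in KO, against medians from -0.05 to 0.19 over all genes scored. The smallest of the 4 ratios was day 0 over day 1 in KO for 38 members and in WT for 29 members. These values chose the members, so they are given as a description with no test.

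There was no gap at the threshold. Just inside it lay Ddb2, Crot, Inafm1, Slc37a2 and Cited2, with scores from 0.276 to 0.272. Just outside lay Pyroxd2, C130050O18Rik, Deptor, Iba57 and Stk17b, with scores from 0.272 to 0.268.

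The day 1 libraries were the lowest in most members, but the groups often overlapped. The lowest of all 18 libraries was a day 1 library for 90 members, a day 0 library for 8 and a day 3 library for 2. In WT, all 3 day 1 libraries lay below all 3 day 0 libraries for 32 members (8.8% of all genes scored), below all day 3 libraries for 76 (34.9% of all) and below both for 22 (1.31% of all). In KO the counts were 36 members against day 0 (9.71% of all), 64 against day 3 (35.6% of all) and 28 against both (2.04% of all). Day 1 lay below both days in both labels without overlap for 7 members (0.211% of all), namely Nr4a1, 9130023H24Rik, Lifr, Slc16a7, Rac2, Crot and Cited2, of which Slc16a7 and Rac2 were picked for naming after these values were seen. All of these comparisons used column-sum CPM. With TMM-adjusted library sizes the score of Rac2 was -0.01, and those of the others named ran from 0.22 to 0.85. The rule used the same values, so these counts describe how sharp the dips were and nothing is read from their excess over all genes.

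**Figure D2:**
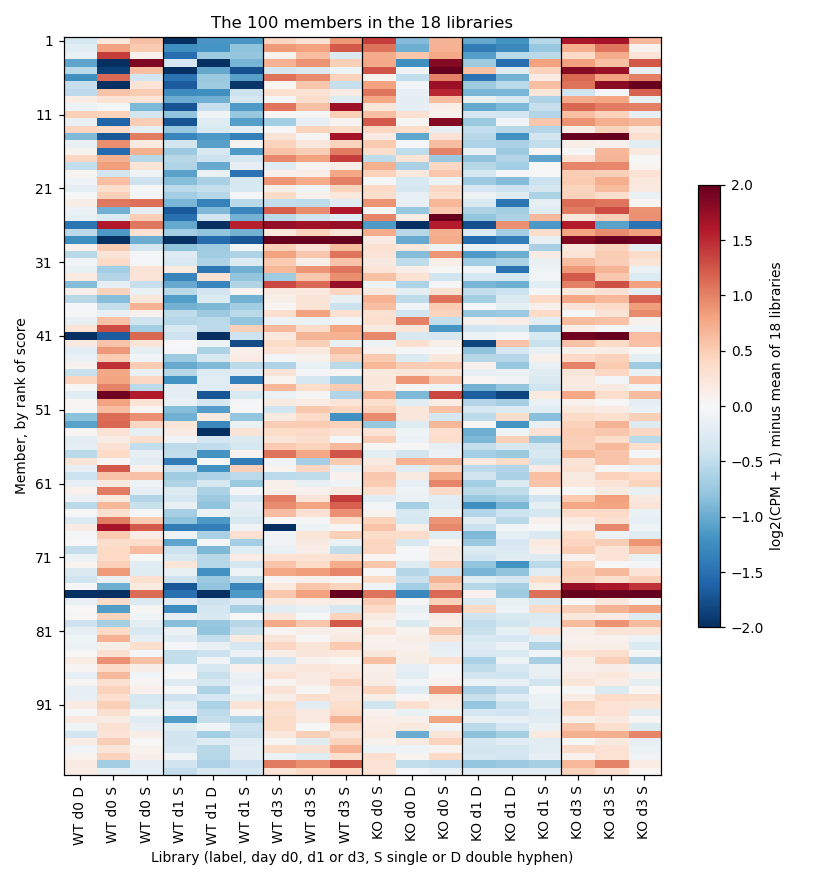
Level of each member (rows, by rank of score) in each of the 18 libraries (columns, S single and D double hyphen in the title), as log2(CPM + 1) minus the member's mean over all libraries. The day 1 columns are mostly blue in both labels, and the double-hyphen day 0 columns are paler or bluer than the other day 0 columns.

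The members' mean level by library showed the dip and its unevenness. As the mean deviation of the 100 members on the log2(CPM + 1) scale, the WT day 1 libraries were at -0.68, -0.73 and -0.45, and the KO day 1 libraries were at -0.54, -0.48 and -0.15. Every day 3 library was between 0.25 and 0.57. On day 0 the single-hyphen libraries were between 0.12 and 0.39, while the double-hyphen libraries were at -0.23 in WT and -0.17 in KO. In WT day 0 and day 1 did not overlap, while in KO the single-hyphen day 1 library 3, at -0.15, lay just above the double-hyphen day 0 library. Over all genes scored the mean deviations were from -0.25 to -0.12 in the 5 double-hyphen libraries and from -0.10 to 0.16 in the others.

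**Figure D3:**
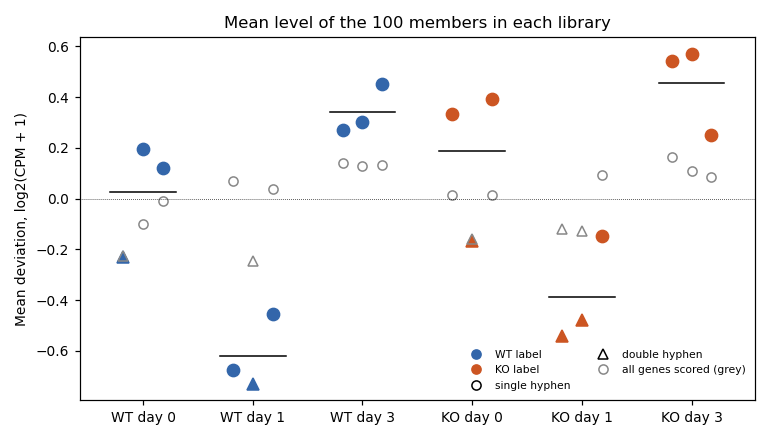
Mean deviation of the 100 members from their means over all libraries (filled symbols; log2(CPM + 1), vertical axis) by label and day, with triangles for double-hyphen titles and bars for group means. The filled day 1 symbols are at or below -0.15, and the open grey symbols, the mean over all genes scored, stay between -0.25 and 0.16.

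The fall from day 0 to day 1 was also seen within each title style. The rise to day 3 could be followed in single-hyphen libraries alone. Among single-hyphen libraries the median log2 ratio of the members was 0.61 for day 0 over day 1 in WT (above 0 for 98 of 100) and 0.45 in KO (99 of 100, with 1 library on day 1). The same ratio among double-hyphen libraries was 0.45 in WT (93 of 100, 1 library a day) and 0.35 in KO (84 of 100, 1 library on day 0). Over all genes scored the corresponding medians lay between -0.08 and 0.04. In the same order, 42.1%, 41.7%, 55.1% and 49.4% of all genes scored were above 0. For day 3 over day 1 in single-hyphen libraries, the members' median was 0.72 in WT (100 of 100 above 0) and 0.50 in KO (94 of 100). Of all genes scored, 58.7% and 56.4% were above 0 in these ratios. With single-hyphen libraries alone, 91 members had a score above 0, as did 793 of the 10044 genes then scored. These libraries are the ones the rule used, so this is no separate evidence.

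How deep the dip against day 3 was depended on the scaling. Scaling by column sums placed the other genes on day 3 higher relative to day 1 than TMM scaling did, by 0.31 in WT and 0.28 in KO on the log2 scale. With TMM-adjusted library sizes the median score of the members was 0.25, 96 of the 100 still scored above 0, and 58 were again among the 100 highest.

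Membership also moved with single libraries. In all 18 repeats that each left out 1 library, 23 members stayed among the 100 highest scores, and 18 of these also did so with TMM and with single-hyphen libraries alone. Leaving out 1 library returned between 65 and 97 members, the fewest without KO day 1 library 3, and it left between 95 and 100 members with a score above 0. Of the 20 members with the highest scores, 13 were among those 18.

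The values below are CPM in the order of library number, and for WT day 1 the single-hyphen library 1 comes first, then the double-hyphen library 1, then library 2. CPM is not scaled by gene length, so levels of different genes are compared as the deposited FPKM.

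C1qtnf1 had the highest score, 1.57. It lies on chromosome 11 at positions 118428203 to 118449963 (+ strand, GRCm38) and encodes a secreted protein related to C1q and tumour necrosis factor. In WT it was at 6.20, 9.74 and 12.9 CPM on day 0, at 1.17, 3.12 and 3.13 on day 1, and at 11.4, 10.3 and 15.9 on day 3. In KO it was at 23.0, 4.03 and 13.8 CPM on day 0, at 3.53, 3.03 and 5.22 on day 1, and at 27.7, 28.1 and 13.7 on day 3. WT day 1 did not overlap either other day. In KO the double-hyphen day 0 library, at 4.03, lay inside the day 1 range.

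Plekhg5, a guanine nucleotide exchange factor for small GTPases (chromosome 4, 152072498 to 152115400, + strand), scored 1.49. Its WT values were 22.1, 45.5 and 37.3 CPM on day 0, 10.4, 10.8 and 14.2 on day 1, and 46.9, 45.5 and 61.2 on day 3. Its KO values were 55.9, 12.5 and 42.0 CPM, then 9.17, 9.92 and 14.7, then 43.1, 55.0 and 27.1. Again WT day 1 lay apart from both days, and the low KO day 0 value was that of the double-hyphen library.

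Nr4a1 and Klf2 are the members among 26 immediate early genes, a list of transcription factors and regulators switched on within minutes of a stimulus; 18 of the 26 were scored and 4 scored above 0. Nr4a1 (Nur77) is an orphan nuclear receptor, and it scored 1.14. It was at 7.82, 24.2 and 9.28 CPM on day 0 in WT, at 2.35, 4.88 and 4.66 on day 1, and at 9.18, 13.8 and 6.88 on day 3. The KO values were 15.2, 13.2 and 15.4 CPM on day 0, 3.53, 5.69 and 5.66 on day 1, and 11.8, 15.1 and 10.6 on day 3. No day 1 library reached any library of the other days of its label, double-hyphen libraries included.

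Klf2, a Kruppel-like zinc finger factor that holds monocytes and lymphocytes in a quiescent state, scored 0.77. Its WT values were 29.3, 32.1 and 32.0 CPM on day 0, 12.8, 13.2 and 20.6 on day 1, and 25.6, 34.0 and 22.1 on day 3. The KO libraries gave 45.9, 23.2 and 41.3 CPM, then 23.8, 21.2 and 17.0, then 44.9, 46.5 and 23.9. WT day 1 was apart from both days, and in KO the highest day 1 library lay above the lowest day 0 library and within 0.1 CPM below the lowest day 3 library.

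The promoters of Nr4a1, Klf2 and Cd33 are shown so that the start regions of both immediate early members and of a myeloid surface receptor, all among the 20 highest scores, can be read beside their values. They are the RefSeq windows on GRCm38.p6 from 250 bases before to 50 bases after the annotated start. Capitals mark the cyclic AMP response element core TGACG, on either strand, in Nr4a1 (chr15:101266596-101266895, + strand) and Klf2 (chr8:72318812-72319111, + strand), and the PU.1 core GAGGAA, on either strand, in Cd33 (chr7:43533122-43533421, - strand).
Nr4a1: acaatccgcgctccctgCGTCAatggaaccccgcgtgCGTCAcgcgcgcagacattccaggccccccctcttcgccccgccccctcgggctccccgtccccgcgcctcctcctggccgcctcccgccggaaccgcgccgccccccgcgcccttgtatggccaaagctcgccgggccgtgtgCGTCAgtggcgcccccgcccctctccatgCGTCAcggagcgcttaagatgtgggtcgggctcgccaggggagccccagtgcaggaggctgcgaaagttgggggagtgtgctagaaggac
Klf2: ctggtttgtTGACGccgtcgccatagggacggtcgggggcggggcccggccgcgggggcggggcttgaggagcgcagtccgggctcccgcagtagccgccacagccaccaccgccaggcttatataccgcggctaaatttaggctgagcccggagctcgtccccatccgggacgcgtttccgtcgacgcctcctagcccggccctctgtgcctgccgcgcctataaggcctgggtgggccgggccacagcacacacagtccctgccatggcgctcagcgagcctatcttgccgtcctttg
Cd33: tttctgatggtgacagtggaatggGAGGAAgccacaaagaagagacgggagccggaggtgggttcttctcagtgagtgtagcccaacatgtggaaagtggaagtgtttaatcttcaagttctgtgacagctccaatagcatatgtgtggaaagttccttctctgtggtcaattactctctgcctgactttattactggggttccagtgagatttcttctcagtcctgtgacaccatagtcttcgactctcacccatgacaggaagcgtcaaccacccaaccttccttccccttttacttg

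The Nr4a1 window held 4 TGACG cores, at -233, -213, -69 and -40 from the start, and the Klf2 window held 1, at -241. Over the 98 RefSeq windows matched to 70 members, 29.6% held a TGACG core, against 32.1% of the 9743 windows matched by symbol to scored genes and 20.8% of all 32851 windows. PU.1 cores were in 26.5% of member windows, 27.4% of scored windows and 28.3% of all. The GC box GGGCGG was in 66.3% of member windows, 63.8% of scored windows and 35.7% of all. Median GC content was 62.5% in member windows and 61% in scored windows. The TATA box TATAAA was in 7.14% of member windows against 6.78%, the CCAAT box in 29.6% against 37.3%, the AP-1 site TGANTCA in 5.10% against 4.88%, the E-box CACGTG in 8.16% against 10.4%, the CHR element TTTGAA in 9.18% against 11.8% and the E2F site TTCCCGC in 6.12% against 8.21%. All were searched on both strands, as a description.

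Cd33, an inhibitory sialic acid-binding lectin of myeloid cells, scored 0.91. It was at 19.2, 102 and 35.2 CPM on day 0 in WT, at 16.1, 27.4 and 21.3 on day 1, and at 99.5, 90.3 and 64.1 on day 3. In KO it was at 48.4, 32.7 and 94.1 CPM, then 15.9, 23.5 and 52.1, then 104, 81.3 and 93.9. Day 1 was apart from day 3 in both labels but overlapped day 0 in both.

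Haptoglobin (Hp), the plasma protein that binds free haemoglobin, scored 1.05. Its WT values were 38.8, 14.9 and 86.5 CPM on day 0, 11.6, 27.3 and 16.1 on day 1, and 44.9, 46.2 and 53.5 on day 3. Its KO values were 137, 53.8 and 251 CPM, then 85.8, 47.7 and 77.5, then 204, 191 and 50.6. In KO day 1 overlapped both other days.

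Plac8, a small cysteine-rich protein of myeloid and placental cells, scored 1.06, but its mean rested on few libraries. The WT day 0 values were 11.2, 4.83 and 91.7 CPM, with 19.1, 4.95 and 12.3 on day 1 and 39.9, 46.1 and 34.4 on day 3. The KO values were 41.9, 9.84 and 89.6 CPM, then 14.6, 7.90 and 43.5, then 43.9, 37.5 and 59.2. Without WT day 0 library 3 the WT day 0 libraries lay within the day 1 range or below it. Plac8 followed the summed stromal markers within groups (r = 0.91 over the 18 libraries, after each group's mean was removed), as did Sfrp2, a secreted Wnt antagonist (r = 0.90). Plac8 and Sfrp2 also followed the summed DNA replication genes (r = 0.78 and 0.75) and mitosis genes (0.75 and 0.81). With the macrophage, osteoclast and neutrophil sums, r ran from -0.48 to 0.42 for Plac8 and from -0.65 to 0.03 for Sfrp2. Over the members the median correlation with the stromal sum was 0.19, with 15 of 100 above 0.5, and over the genes scored it was 0.25, with 29.9% above 0.5. None of the 25 stromal markers was a member, as 1.0% of all genes scored were. The part of stromal cells in the dip was not tested.

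Fam101b, a filamin-binding protein, scored 0.83, Rhou, an atypical small GTPase, 0.55, and Fmnl2, an actin-nucleating formin, 0.53. Fmnl2 was at 25.0, 18.5 and 23.0 CPM on day 0 in WT, at 10.9, 21.8 and 7.99 on day 1, and at 25.9, 26.7 and 42.0 on day 3. In KO it was at 33.5, 28.1 and 35.6 CPM, then 18.6, 23.4 and 24.3, then 34.6, 34.0 and 29.6, so that day 1 was apart from both days in KO and from day 3 alone in WT. Rac2, the small GTPase of blood cells that drives the phagocyte oxidase, scored 0.28, but -0.01 with TMM-adjusted library sizes. Its WT values were 441, 434 and 330.4 CPM, then 178, 283 and 254, then 504, 446 and 632, and its KO values were 428, 419.8 and 674, then 351, 349 and 337, then 413, 444 and 401.

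Padi2, which converts arginine to citrulline in proteins, scored 0.72, with WT means of 15.1 ± 4.74, 8.77 ± 4.26 and 43.9 ± 17.6 CPM (SD, n = 3) on days 0, 1 and 3 and KO means of 19.8 ± 3.00, 10.5 ± 2.42 and 40.1 ± 2.13. Cmah, which makes N-glycolylneuraminic acid, scored 0.83, with means between 1.75 and 9.18 CPM, but 0.17 with single-hyphen libraries alone, and it stayed among the 100 highest in 15 of the 18 repeats that left out 1 library. Rnf144a, a ubiquitin ligase, scored 0.66, Ptpn18, a tyrosine phosphatase, 0.58, Ggt5, which acts on leukotriene C4, 0.54, and Serinc5, a membrane protein that restricts retroviruses, 0.52. Mmp13, a collagenase, scored 0.59. It was at 10.7, 5.63 and 42.6 CPM on day 0 in WT and at 7.67, 8.68 and 7.43 on day 1, so a single day 0 library set the WT day 0 mean.

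**Figure D4:**
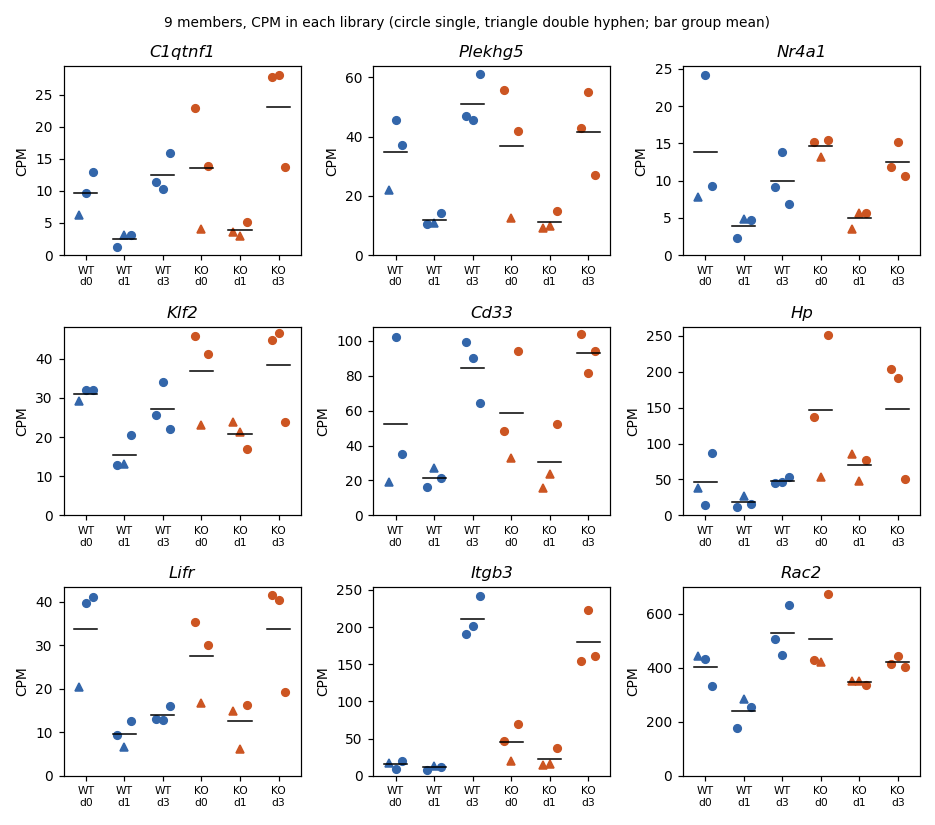
CPM (linear axis from 0) of 9 members in each library, by label and day (blue WT, orange KO; triangles double-hyphen titles; bars group means). Nr4a1, Lifr and Rac2 have day 1 symbols below all symbols of both other days within each label, and Itgb3 reaches 155 to 242 CPM on day 3 from 37.0 CPM or less on day 1.

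Histone genes appeared 3 times. Hist2h3c2 (histone H3, score 0.68) and Hist2h2be (histone H2B, 0.54) lie 14369 bases apart on chromosome 3 on opposite strands, and Hist1h4i (histone H4, 0.32) is on chromosome 13. Hist2h3c2 had means of 7.12 ± 2.42, 3.84 ± 1.43 and 6.76 ± 1.58 CPM (SD, n = 3) on days 0, 1 and 3 in WT and of 7.72 ± 1.54, 4.10 ± 0.476 and 7.65 ± 2.26 in KO. Of the 22 replication-dependent histone genes listed, 3 were scored, 2 scored above 0 and Hist1h4i was the member. Histone genes of the same class can be similar in sequence, so their counts may depend on how the authors' counting treated shared reads. This was not tested. The 25 DNA replication genes, none at 0, summed to medians of 443, 1250 and 1467 CPM on days 0, 1 and 3 in WT and of 772, 537 and 1235 in KO. The KO day 1 libraries ranged from 533 to 1363 CPM and the KO day 0 libraries from 526 to 876. The WT day 1 libraries ranged from 436 to 2189 CPM and the WT day 0 libraries from 366 to 894, so day 1 overlapped day 0 in both labels.

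Other members also lie close together. Mt1 and Mt2, metallothioneins that bind zinc and copper, are 5521 bases apart on chromosome 8, Cd33 and Zfp658 are 17827 bases apart on chromosome 7, Mblac1 and Zfp113 are 38569 bases apart on chromosome 5, and Rchy1 and Thap6 overlap on opposite strands. The members Zfp658, Mblac1, Zfp113, Rchy1, Thap6, Mt1 and Mt2 were named here for their position, after their values were seen. Mt1 had the highest FPKM of the members, 144 as the mean over the 6 groups, and Cmah the lowest, 0.45. For 20 members another gene overlaps them with at least 10% of their counts. One of them is Ube2v1, a ubiquitin-conjugating enzyme variant, named after its values were seen. Ube2v1 was at 7.26, 67.0 and 45.5 CPM on day 0 in WT and at 10.01, 3.39 and 65.2 on day 1, and in KO at 66.1, 9.69 and 7.01 on day 3. It thus took values of 10.01 CPM or lower, or 41.1 CPM or higher, within single groups. Ube2v1 overlaps Gm20431 on the same strand. Whether reads of the pair were split differently between libraries was not tested.

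From 30 lists of genes chosen for this tissue and treatment, 4 lists held 5 members and 26 held none. Besides Nr4a1, Klf2 and Hist1h4i these were Itgb3, from 19 osteoclast genes, and Ndrg1, a hypoxia-induced gene, from 24 glycolysis and hypoxia genes. No member came from the macrophage, neutrophil, interferon, MHC class II, mitosis, cholesterol synthesis or respiratory chain lists. Members were 1.0% of all genes scored, so nothing is read from a short list without a member. Of the 14 osteoclast genes scored, 5 scored above 0 and the median score was -0.76, against -0.29 over all genes scored.

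What the members had in common beyond the rule was limited. They were 96% protein coding, against 97.4% of the genes scored, and their median exon length was 4524 bases against 4609. They lay on 19 chromosomes, with 11 each on chromosomes 7 (7.53% of the genes scored) and 11 (8.61%). Chromosomes 3 (4.79%), 5 (6.52%) and 15 (3.92%) held 8 each. Within groups, after each group's mean was removed, the mean correlation between pairs of members was 0.22, against 0.10 over all genes scored; the 18 libraries share depth, title style and composition, so this is a description.

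Day 3 and day 0 were compared next, since the rule did not use the difference between them. Most members were not called in either label. At an adjusted p under 0.05 in the edgeR fit, 21 members were called in WT (50.2% of all genes tested were) and 10 in KO (42.5% of all). The rule bears on this share, because a gene whose mean goes one way throughout cannot be a member. The 14241 genes tested were also not held to the day 0 minimum of 5 CPM that the members passed. This holds for every share of genes tested below. In WT 8 rose (23.7% of all) and 13 fell (26.5% of all), and in KO 5 rose (20.2% of all) and 5 fell (22.3% of all). Over both labels 26 members were called, 5 of them in both, and 74 in neither. The median log2 fold change of the members was -0.25 in WT and -0.18 in KO, against -0.03 and -0.01 over all genes tested. The sign of this median depended on the scaling. With column-sum CPM, 67 members in WT and 66 in KO had a higher mean on day 3 than on day 0. So did 6229 and 6125 of the 9950 genes scored. The column-sum medians of the members were 0.11 in WT and 0.09 in KO, below 0.23 and 0.18 over all genes scored. With TMM, 36 members in WT and 34 in KO were higher on day 3. The KO count was 6 when KO day 0 library 1, KO day 3 library 1 or KO day 3 library 2 was left out, and 18 when only the KO day 0 and day 3 libraries were fitted. With DESeq2 size factors, 6 of 9 called members rose in KO.

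Itgb3 is the beta 3 integrin subunit, the partner of alpha v in the vitronectin receptor of osteoclasts. It was at 17.2, 8.80 and 20.3 CPM on day 0 in WT, at 7.54, 13.6 and 12.0 on day 1, and at 190.3, 201 and 242 on day 3. In KO it was at 47.0, 20.3 and 70.1 CPM, then 13.7, 15.4 and 37.0, then 155, 222 and 161. All day 3 libraries were above all others, while day 1 overlapped day 0 in both labels. From day 0 to day 3 it rose by 3.40 ± 0.45 in WT (log2, SE, adjusted p = 5.4e-05, edgeR) and by 1.71 ± 0.42 in KO (adjusted p = 0.0056). The difference between those changes, KO minus WT, was -1.70 ± 0.59 with an adjusted p of 0.91.

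Lifr is the receptor for leukemia inhibitory factor. Its WT values were 20.4, 39.8 and 41.1 CPM on day 0, 9.46, 6.65 and 12.5 on day 1, and 13.1, 12.7 and 15.9 on day 3. The KO values were 35.5, 16.7 and 30.2 CPM, then 14.98, 6.13 and 16.3, then 41.6, 40.4 and 19.2. Lifr fell by 1.63 from day 0 to day 3 in WT on the log2 scale (SE 0.36, adjusted p = 0.0020, edgeR). The change in KO differed from that in WT by 1.64 ± 0.50, and that difference did not pass the test (adjusted p = 0.91).

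Other members that rose in WT included Padi2, Slc37a2, Lpcat1, Galnt12, 4930523C07Rik and 2810025M15Rik. Slc37a2, a sugar-phosphate exchanger of the endoplasmic reticulum in macrophages, rose by 0.89 ± 0.25 (adjusted p = 0.0082), and it was at 421, 234 and 332 CPM on day 0 and 770.2, 716 and 896 on day 3. Padi2 rose by 1.16 ± 0.37 (adjusted p = 0.018), but its adjusted p was 0.056 without WT day 0 library 3 and 0.097 without WT day 3 library 3. Lpcat1, a phospholipid acyltransferase, and Galnt12, which starts O-linked glycans, rose by 0.73 ± 0.24 and 0.84 ± 0.29. Without WT day 3 library 3 their adjusted p were 0.12 and 0.083.

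Igfbp4, which binds insulin-like growth factors, was at 462, 1216 and 629 CPM on day 0 and at 289, 404 and 302 on day 3, and it fell by 1.56 (log2, SE 0.38, adjusted p = 0.0038, edgeR). Cbr2, a carbonyl reductase, fell by 1.93 (SE 0.61, adjusted p = 0.017) from 49.3, 226 and 176 CPM to 52.8, 58.7 and 38.1. The double-hyphen day 0 library of Cbr2, at 49.3, lay among the day 3 values, and without WT day 0 library 2 the adjusted p was 0.081. The others that fell were Rasgrp3 (a Ras activator), Sema6d (a semaphorin), S1pr1 (a receptor for sphingosine 1-phosphate), Pck2 (mitochondrial PEP carboxykinase), Pan2 (a deadenylase), Dgkd (a diacylglycerol kinase), Inafm1, Pepd (prolidase), Gm20683 and 4933439C10Rik, with log2 changes from -2.26 to -0.36. Without WT day 0 library 2 none of these 10 passed, with adjusted p from 0.050 to 0.34. The WT count was 16 without that library, of which 13 rose, and 14 without WT day 3 library 3. Pepd was named after its values were seen. In column-sum CPM Pepd did not fall in WT, where the day 0 and day 3 means were each 1.22-fold the day 1 mean.

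In KO the members that rose included Itgb3, Mmp13, Plxdc2 and 2810025M15Rik. Plxdc2, a transmembrane protein with a plexin domain, rose by 1.40 ± 0.36 (adjusted p = 0.0066, edgeR) from 19.1, 12.2 and 28.3 CPM to 69.5, 64.5 and 56.1. Mmp13 rose by 2.34 ± 0.73 (adjusted p = 0.020) from 23.0, 9.51 and 25.2 CPM to 128, 204 and 26.1, and without KO day 3 library 2 the adjusted p was 0.094. The members that fell were Fmnl1 (a formin of blood cells), Ptpn18, Srsf5 (a splicing factor), Dgkd and Inafm1, with log2 changes from -0.80 to -0.43. Without KO day 0 library 3 the adjusted p of Fmnl1 was 0.055, that of Ptpn18 0.12, that of Srsf5 0.053, that of Dgkd 0.088 and that of Inafm1 0.12. All 5 falls thus lost their call without that library, and the 7 members then called all rose.

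**Figure D5:**
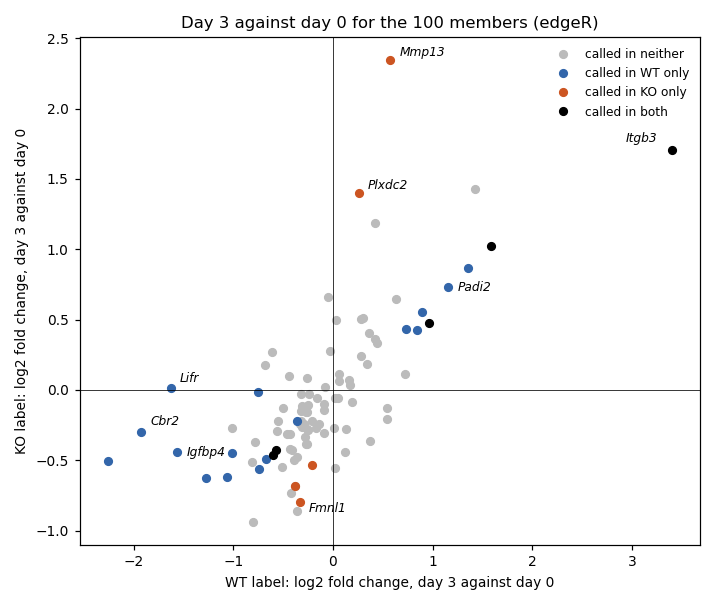
Log2 fold change of each member from day 0 to day 3 (edgeR, TMM) in WT (horizontal axis) and in KO (vertical axis), coloured by whether the member was called in WT, KO, both or neither. Itgb3 lies at 3.40 and 1.71, Mmp13 and Plxdc2 are called in KO alone, and 74 grey points are called in neither label.

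The labels did not differ in any member at the adjusted threshold. The edgeR fit called 0 members between KO and WT on day 0 (0.119% of all genes tested), 0 on day 1 (0.112% of all) and 0 on day 3 (0.14% of all). At an unadjusted p under 0.05 there were 11, 12 and 15 members, against 7.59%, 7.90% and 10.7% of all genes. By the threshold the study used, an unadjusted p under 0.05 with a fold above 1.5 or below 0.66, there were 8 members on day 0 (3.95% of all), 8 on day 1 (4.7% of all) and 14 on day 3 (5.69% of all), of which 8 (2.89% of all), 6 (3.34% of all) and 13 (4.82% of all) were higher and 0 (1.06% of all), 2 (1.37% of all) and 1 (0.864% of all) lower in KO. Without overlap, all KO libraries lay above all WT libraries for 1 member on day 0 (4.9% of the genes scored), 13 on day 1 (3.72%) and 17 on day 3 (10.7%), and below them for 0 (3.92%), 3 (3.81%) and 16 (19.4%). The summed stromal markers also lay apart between the labels on day 3, at 41596 to 55234 CPM in KO and 24228 to 31054 in WT, and their part in these differences was not tested. DESeq2's Wald test called Lifr and Plxdc2 on day 3 (adjusted p = 0.038 and 0.039), and edgeR on the day 3 libraries alone called Plxdc2 and Palm, the latter named after its values were seen. When the double-hyphen library of WT day 1 was left out, Fmnl2 and Ndrg1 were called on day 1. The difference between the labels in the change from day 0 to day 3 was called for 0 members by edgeR (0% of all) and by DESeq2, and 4 members had an unadjusted p under 0.05 (5.40% of all); by the study's threshold there were 4 (3.39% of all).

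Hp had positive differences, KO minus WT, on every day, and none passed the test. On the log2 scale the day 0 difference was 1.60 ± 0.63 (SE), the day 1 difference 1.89 ± 0.65 and the day 3 difference 1.65 ± 0.63, with adjusted p of 0.58, 0.52 and 0.39 from edgeR. The KO libraries did not overlap the WT libraries on day 1, and they did on days 0 and 3. The 16 neutrophil granule genes, with none at 0, summed in KO to between 3985 and 14541 CPM on day 0 against 829 to 3704 in WT, to between 1650 and 4347 on day 1 against 472 to 2256, and to between 149 and 1636 on day 3 against 54.8 to 101, so the labels overlapped on day 1 alone. Within groups, after each group's mean was removed, Hp had r = 0.25 with the summed neutrophil genes. Its r with the other summed lists ran from -0.63 for macrophage markers to 0.53 for osteoclast genes. The part of neutrophils in the level of Hp was not tested. For Fam101b the day 3 difference was 1.73 ± 0.65 (adjusted p = 0.37), with 45.8, 76.2 and 94.9 CPM against 21.6, 31.2 and 15.1.

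Title style was tested in the fit as a difference within groups, which the group means of the rule did not use. Between double-hyphen and single-hyphen libraries, 17 members were called (23.2% of all genes tested), 3 higher (9.94% of all) and 14 lower (13.3% of all) in double-hyphen libraries. The lower members included Sfrp2 by -2.84 ± 0.75 (log2, SE, adjusted p = 0.016, edgeR), Plac8 by -1.89 ± 0.53 (adjusted p = 0.021), Cbr2 by -1.67 ± 0.17 (adjusted p = 5.35e-05) and Cmah by -1.14 ± 0.35 (adjusted p = 0.030). Sfrp2 was at 0.211 CPM in the double-hyphen WT day 0 library and at 3.82 and 43.6 in the others. The higher members were Ndrg1 by 0.96 ± 0.23 (adjusted p = 0.0098), Rasgrp3 by 0.69 ± 0.23 and Cited2 by 0.30 ± 0.09. Leaving out the double-hyphen library of WT day 1, the adjusted p were 0.071 for Ndrg1, 0.26 for Rasgrp3, 0.13 for Cited2 and 0.054 for Sfrp2. Without KO day 0 library 2 they were 0.070 for Plac8 and 0.10 for Cmah, while Cbr2 passed in all 22 alternatives. The count of 17 became 6 when KO day 0 library 2 was left out, 7 for KO day 1 library 3, 9 for WT day 0 library 1, and 11 for library 2 of WT day 1 or of KO day 1. KO day 1 held 2 double-hyphen libraries and KO day 0 held 1. With single-hyphen libraries alone the score of Plac8 was 0.10 in place of 1.06, that of Cmah 0.17 in place of 0.83, that of Cbr2 0.03 in place of 0.37 and that of Sfrp2 0.0032 in place of 0.30, and all of them left the 100 highest. The score of Ndrg1 was 0.85 in place of 0.34, and that of Rasgrp3 was 0.56.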

How the data were processed

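The authors deposited 1 table with raw counts per gene and FPKM (scaled by length and depth, by StringTie) in 18 libraries; the processing notes name GRCm38.p4 (mm10), and the aligner is not given in the sources used here. Deposited counts gave every value; deposited FPKM gave an alternative and the comparison of levels between genes. Members were found from column-sum CPM by the rule in the opening. The members and the gene lists were chosen with earlier results of these data known. Counts were fitted in R 4.3.3 with edgeR 4.0.16 (filterByExpr, TMM, quasi-likelihood test, all libraries as 6 groups, 14241 genes, all 100 members among them); p-values are 2-sided and Benjamini-Hochberg adjusted over all genes. DESeq2 1.42.0 was an alternative. The script was tested on simulated data. Deviations of same-numbered libraries all correlated above 0.1 between KO day 0 and day 3 (0.130, 0.135 and 0.398) and between KO day 1 and day 3 (0.218, 0.156 and 0.340). Libraries of different numbers were not set beside them, and title style was not separated. The double-hyphen WT day 0 library 1 had 0.60 with the double-hyphen WT day 1 library 1 and -0.46 with the single-hyphen one. No 2 libraries of the same label and day agreed within sampling noise. Genes named were the 20 highest scores, list members, the called members, the 5 either side of the threshold, and any said to be picked later. Intervals and dispersions cover counting error and spread between libraries; PCR copies were not separated. Promoters came from RefSeq (GRCm38.p6). The values of 1 called member are not reported here.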

Additional observations from a re-analysis of the deposited data

How the results depend on the processing

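The number of members found again among the 100 highest scores was 58 with TMM, 62 with DESeq2 size factors, 49 with deposited FPKM, 66 with a day 0 minimum of 1 CPM, 49 with single-hyphen libraries alone, and from 65 to 97 when 1 library was left out. Members called between KO and WT were 0 on each day; by the study's threshold they were 8, 8 and 14 on days 0, 1 and 3, and on day 3 DESeq2's Wald test and a fit of the compared groups each called 2. Leaving out 1 library gave 0 to 2 on day 1 and 0 on days 0 and 3. The interaction went from 0 to 4 by the study's threshold. From day 0 to day 3, members called in KO went from 10 to 18 with the compared groups alone and from 6 to 8 without 1 library, and in WT from 21 to between 14 and 22 without 1 library. Title style gave 17, or 6 with a replicate block, and from 6 to 20 without 1 library. With the WT day 1 libraries numbered 1 averaged, 88 members were found again among the 100 highest. Members called from day 0 to day 3 were then 21 in WT and 13 in KO, and 14 were called by title style. The causes were not tested. A replicate block, in the form that pairs all groups or within a label, changed no other count by more than 1.5 times (KO 11 and 12, WT 20 and 22, against 10 and 21). In WT the deviations of same-numbered libraries did not all correlate above 0.1 between any 2 days. The fits with single-hyphen libraries alone and with the block within a label were chosen after seeing the data. No named log2 fold change reversed.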
